A study of Mus musculus with 16 samples.

Results

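The genes described here are 36 genes of mitosis and of the G2/M transition, taken as the rows of 3 count tables whose gene name is on a list of cyclins, mitotic kinases, checkpoint proteins, centromere and kinetochore proteins, spindle motors and cytokinesis proteins. Each of the 36 has 1 row in each table, out of 52636 genes for the crypts, 54532 for the KO IEC organoids and 52636 for the KO CAG organoids. All 36 also passed the filter on low counts in each experiment, so no member drops out below. RNA-seq was used to ask how the RNA of the small intestinal epithelium differs when Cul4b, which encodes the scaffold of a cullin-RING ubiquitin ligase, is deleted.

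Crypts are the pockets of the small intestinal wall in which stem cells and fast-cycling progenitors divide, and the cells they give off leave the cycle as they move up the villus. RNAs of mitotic genes accumulate in G2 and M phase, largely through the MuvB complex with B-MYB and FOXM1, which acts at CHR and CCAAT elements near the start of these genes, and the DREAM complex keeps the same promoters silent in resting cells. The level of these RNAs in bulk tissue therefore reads how much of the sample is cycling as well as how much RNA each cycling cell holds. In bulk samples such as these, fewer cells of a type and less RNA per cell cannot be told apart.

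All mice were on a C57BL/6 background. Cul4b is X-linked, and the deleted animals were males with a single floxed allele (Cul4b fn/Y). In KO IEC mice, pVillin-Cre removed it in the intestinal epithelium, and the study gives Cul4b fn/Y, with no Cre named, as WT. Crypts were sequenced from 4 WT and 4 KO IEC samples after villi had been scraped off and the tissue had been soaked in EDTA on ice. Organoids, which are epithelial cultures grown from crypts in Matrigel, were sequenced from 2 WT and 2 KO IEC samples. The last experiment used 2 WT organoid samples and 2 of CAG-CreERT2; Cul4b fn/Y (KO CAG), in which a Cre driven by a ubiquitous promoter is switched on by 4-hydroxytamoxifen, which the study's methods add to the culture. Whether the WT cultures of that experiment carried CreERT2 or received the drug, which medium was used and how long after induction RNA was taken are not given in the sources used here, nor is the age of the mice behind each library. For most of its experiments the study's methods give a range of ages, all of adult mice a few months old. The study's methods call the samples biological replicates, and the labels do not say which came from separate animals or cultures, so p-values measure the spread between these samples.

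Total counts per library ran from 9311734 to 13479974 in the crypts, from 15006730 to 16881395 in the KO IEC experiment and from 7348191 to 10462275 in the KO CAG experiment. The floor of 3 counts was at most 0.408 CPM (counts scaled to a common library total, the measure of level used throughout), and every member lay above it in all 16 libraries. Cul4b itself stood at 31.7 to 38.3 CPM in WT crypts and 0.848 to 2.21 CPM in KO IEC crypts, at 73.2 to 83.2 against 1.69 to 1.76 CPM in the KO IEC experiment, and at 70.1 to 72.9 against 3.34 to 5.19 CPM in the KO CAG experiment, which fits the labels. Epithelial markers (Epcam, Vil1, Krt8, Krt18, Cdh1) summed to between 5064 and 9356 CPM in every library, and 4 to 6 of 6 leukocyte markers were at 0 in each organoid library. The organoid library KO IEC replicate 2 stood apart from its partner in the genes described here, and results that rest on it are given with and without it.

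RefSeq promoter sequences (250 bases before to 50 after the start of transcription, GRCm38.p6) were matched to 31 of the 36 genes, with 33 entries in all. They are shown because they are the stretches that genes of this group are known to share, and any part of them in the KO effect was not tested. None was matched for Aurkb, Ccna2, Incenp, Kif20a and Tpx2. The 2 genes that were called in both the crypts and the KO CAG organoids come first, chosen after their values were seen, followed by Ccnb1, Cdc20, Plk1, Cenpe and Mki67 as examples of different roles. Capitals mark the CHR core TTTGAA and the CCAAT box, each searched on both strands, and the sequences read 5′ to 3′ in the direction of transcription.
Ccnb2, chr9:70421505-70421804, minus strand: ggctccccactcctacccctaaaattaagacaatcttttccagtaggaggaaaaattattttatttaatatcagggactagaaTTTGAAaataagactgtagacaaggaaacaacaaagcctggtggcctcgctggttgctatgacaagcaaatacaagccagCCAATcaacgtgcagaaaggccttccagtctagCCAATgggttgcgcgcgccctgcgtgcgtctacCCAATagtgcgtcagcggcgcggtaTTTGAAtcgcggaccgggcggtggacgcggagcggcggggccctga
Nusap1, chr2:119618048-119618347, plus strand: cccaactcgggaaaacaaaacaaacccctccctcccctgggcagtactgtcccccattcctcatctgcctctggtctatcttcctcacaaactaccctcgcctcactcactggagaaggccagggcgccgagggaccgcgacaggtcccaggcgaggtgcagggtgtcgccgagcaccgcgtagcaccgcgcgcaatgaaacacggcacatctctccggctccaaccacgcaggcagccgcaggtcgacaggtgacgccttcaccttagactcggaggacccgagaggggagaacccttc
Ccnb1, chr13:100786437-100786736, minus strand: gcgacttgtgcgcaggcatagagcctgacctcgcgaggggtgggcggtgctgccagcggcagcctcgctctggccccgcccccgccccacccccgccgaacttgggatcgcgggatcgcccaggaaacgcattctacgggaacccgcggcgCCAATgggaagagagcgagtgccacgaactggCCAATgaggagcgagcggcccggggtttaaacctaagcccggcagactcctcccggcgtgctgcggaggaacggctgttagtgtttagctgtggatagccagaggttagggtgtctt
Cdc20, chr4:118437294-118437593, minus strand: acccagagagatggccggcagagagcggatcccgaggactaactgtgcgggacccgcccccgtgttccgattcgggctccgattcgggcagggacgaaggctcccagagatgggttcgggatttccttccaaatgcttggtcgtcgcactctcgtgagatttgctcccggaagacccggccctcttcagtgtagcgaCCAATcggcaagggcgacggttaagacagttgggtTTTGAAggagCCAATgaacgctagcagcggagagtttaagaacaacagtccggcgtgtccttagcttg
Plk1, chr7:122159185-122159484, plus strand: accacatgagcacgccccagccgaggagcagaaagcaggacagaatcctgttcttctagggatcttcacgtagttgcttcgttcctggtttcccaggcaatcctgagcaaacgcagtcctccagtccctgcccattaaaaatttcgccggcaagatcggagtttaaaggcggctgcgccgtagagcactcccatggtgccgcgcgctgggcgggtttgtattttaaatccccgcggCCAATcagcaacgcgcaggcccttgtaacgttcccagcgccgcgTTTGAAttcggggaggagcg
Cenpe, chr3:135212313-135212612, plus strand: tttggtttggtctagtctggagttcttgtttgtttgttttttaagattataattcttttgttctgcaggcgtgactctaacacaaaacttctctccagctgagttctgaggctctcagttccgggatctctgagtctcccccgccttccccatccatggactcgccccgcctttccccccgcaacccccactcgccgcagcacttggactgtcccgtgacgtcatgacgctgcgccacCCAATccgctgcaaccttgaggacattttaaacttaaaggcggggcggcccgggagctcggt
Mki67, chr7:135716330-135716629, minus strand: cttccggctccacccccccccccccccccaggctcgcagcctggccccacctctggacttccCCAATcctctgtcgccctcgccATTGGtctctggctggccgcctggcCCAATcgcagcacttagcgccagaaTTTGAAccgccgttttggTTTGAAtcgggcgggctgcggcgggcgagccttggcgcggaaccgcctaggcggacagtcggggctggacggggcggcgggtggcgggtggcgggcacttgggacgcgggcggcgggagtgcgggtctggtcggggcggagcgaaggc
TTTGAA was found in 26 of the 33 promoters (78.8%), against 17.9% of all 32851 promoters in the table. CCAAT was found in 26 of the 33 (78.8%), against 37.4% of all promoters. Both motifs stood together in 24 of the 33 (72.7%), against 7.52% of all. Ccnb2 and Mki67 each held 2 matches to the CHR core and 3 to the CCAAT box, and Cdc20 held 1 and 2. The Nusap1 window held no match to either, and those of Ccnb1 and Cenpe held CCAAT alone. A match is a stretch of letters and not a measured binding site, and its lack says only that these letters are not in this window.

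By the fold change over all libraries, the group lay below WT by a modest amount in each experiment. In the KO IEC organoids this rested on KO replicate 2, since KO replicate 1 had a median of 0.13, with 5 of 36 members below the WT mean. The median log2 fold change of the 36 members, KO against WT, was -0.49 in crypts, -0.42 in the KO IEC organoids and -0.39 after deletion by CAG-CreERT2, while the median of all tested genes was -0.011, -0.010 and 0.0012. The number of members below 0 was 35, 35 and 34 of 36, where 51.1%, 51.2% and 49.9% of all tested genes lay below 0. Of the 36, 32 lay below WT in all 3 experiments, the exceptions being Spc25, Kif11, Kif23 and Ect2. None was called higher. No member was called with a change of 2-fold or more in any experiment, where 0.343%, 0.00717% and 2.24% of all tested genes were called lower by that much and 1.44%, 0% and 6.36% higher.

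**Figure D1:**
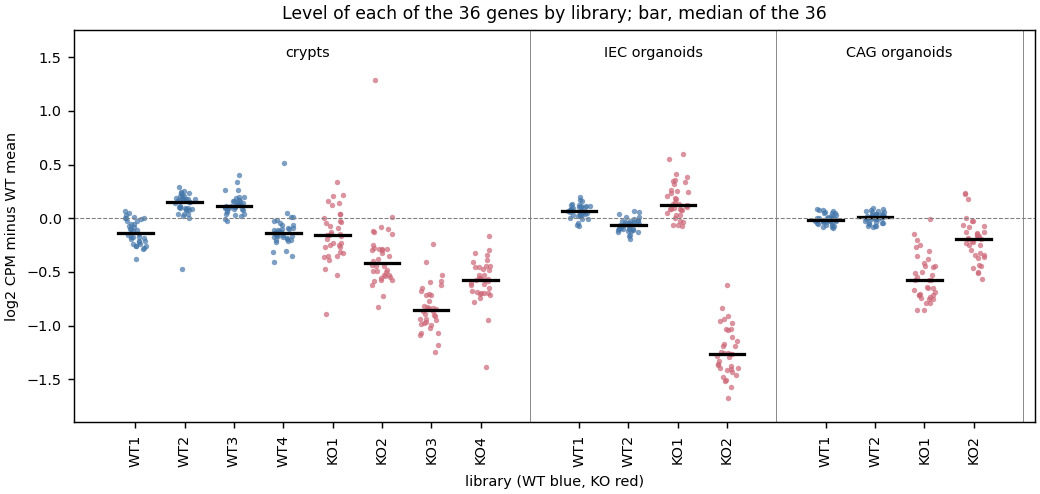
Each point is 1 of the 36 genes in 1 library, as log2 CPM minus the mean of the WT libraries of the same experiment (y axis), with WT in blue, KO in red and a bar at the median of the 36. The KO crypt medians run from -0.15 to -0.85, the KO IEC organoid medians are 0.13 and -1.27, and the KO CAG organoid medians are -0.58 and -0.20.

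Seen library by library, most members lay on the same side of the WT mean in each KO library. They still spread, from -0.89 to 0.34 in crypt KO replicate 1 and from -0.83 to 1.28 in crypt KO replicate 2. In KO CAG replicate 2 they ran from -0.57 to 0.24. In the WT crypts the median of the 36, as log2 CPM minus the WT mean, was -0.14, 0.15, 0.11 and -0.13 in replicates 1 to 4. In the KO IEC crypts it was -0.15, -0.42, -0.85 and -0.57, so that KO replicate 1 lay just below the lowest WT library and KO replicate 3 lay lowest. The number of members below every WT library was 14, 28, 35 and 35 in these 4 libraries. The share of all tested genes was not computed for single libraries, so such counts are a description. The median of all tested genes in the same libraries was 0.011, -0.0068, -0.013 and -0.018. The 2 libraries of KO IEC organoids parted: replicate 1 had a median of 0.13, with 5 of 36 members below the WT mean, and replicate 2 had a median of -1.27, with all 36 below both WT libraries. The KO CAG libraries were both low, with medians of -0.58 in replicate 1 and -0.20 in replicate 2.

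**Figure D2:**
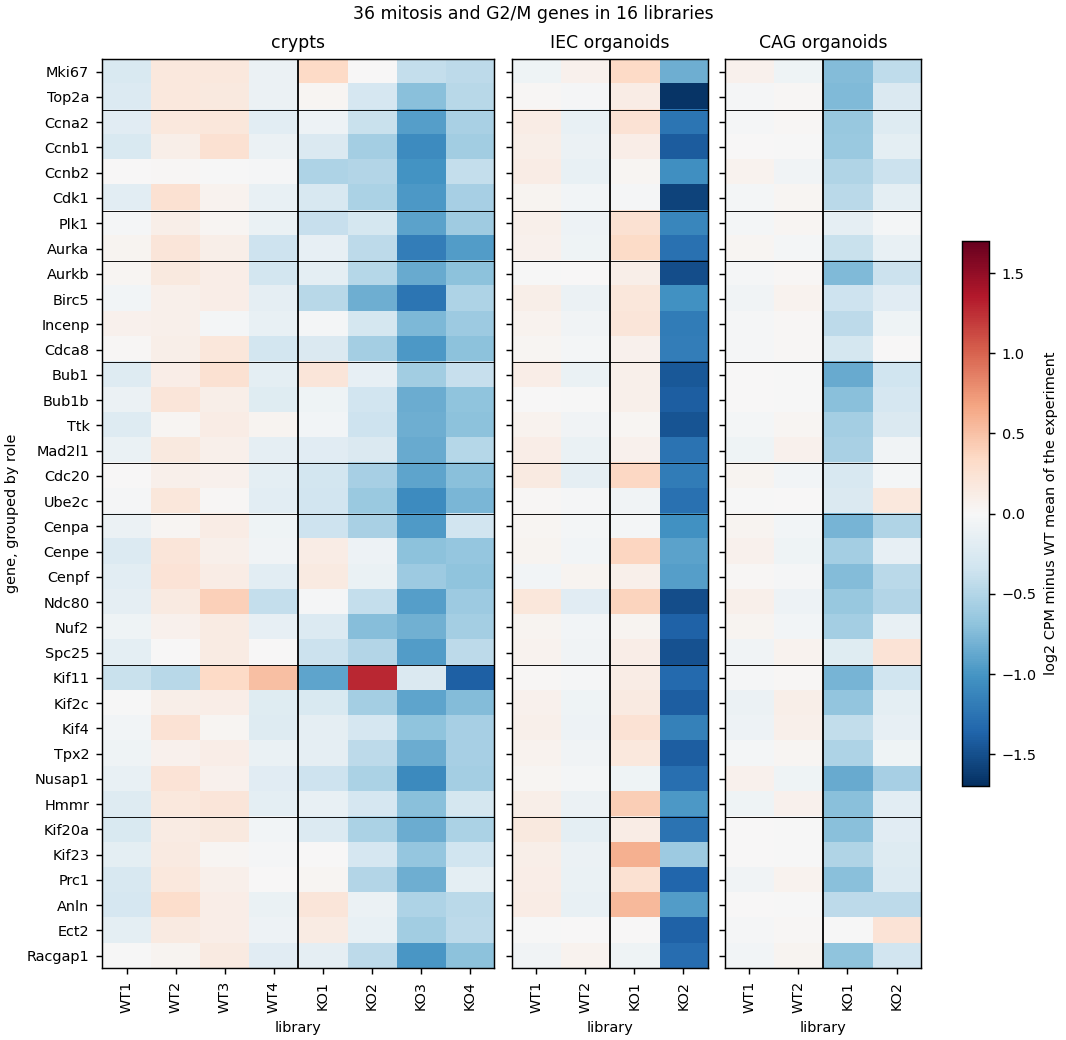
Each row is 1 of the 36 genes, ordered by role with thin lines between roles, and each column 1 of the 16 libraries. Colour gives log2 CPM minus the WT mean of that experiment, from -1.7 (blue) to 1.7 (red), and the column of KO IEC organoid replicate 2 is blue in all 36 rows, while Kif11 in crypts is red in KO replicate 2 and blue in KO replicates 1 and 4.

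The crypt comparison asked whether mitotic RNAs differ when Cul4b is missing from the epithelium of the living intestine. In KO IEC crypts 9 of the 36 members fell (edgeR quasi-likelihood test, Benjamini-Hochberg adjusted p under 0.05 over 13427 tested genes), where 2.66% of all tested genes were called lower. They were the cyclin Ccnb2, the kinase Plk1, the passenger subunit Birc5, the anaphase ubiquitination genes Cdc20 and Ube2c, the kinetochore genes Nuf2 and Spc25, and the microtubule genes Kif2c and Nusap1. None rose, where 4.3% of all tested genes were called higher. In 13 members every KO library lay below every WT library, against 8.79% of all tested genes. No member had every KO library above every WT library, as 8.7% of all tested genes did. An unadjusted p under 0.05 was reached by 25 members with a lower level and by none with a higher one, against 14.6% and 17.4% of all tested genes. Fold changes ran from -0.74 (log2) for Birc5 to 0.018 for Kif11.

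The 9 calls had adjusted p-values from 0.0423 to 0.0499 and rested on single libraries. No member was called when WT replicate 1, 2 or 3 or KO replicate 2 or 3 was left out, and in each of these fits 1 of all tested genes was called lower. The count was 2 without KO replicate 4, 11 without WT replicate 4 and 24 without KO replicate 1, where 1.41%, 4.99% and 7.87% of all tested genes were called lower. The median over the 36 stayed between -0.61 and -0.36. DESeq2 called 18 members and 7.05% of all tested genes lower. Crypt libraries also differed in mitochondrial ribosomal RNA (mt-Rnr1 and mt-Rnr2 together), which lay under 100 CPM in 1 WT and 3 KO libraries, between 100 and 2000 CPM in 1 of each, and above that in 2 WT libraries. Within the low class 31 of 36 members lay below WT with a median of -0.35, and within the middle class 36 of 36 with a median of -0.41. Each of these classes holds 1 WT library, which all 36 members share, so these counts are a description. No share of all tested genes was computed within the classes. With the class as a covariate no member was called, where 1 of all tested genes was called lower. Scaled by library size alone, 5 members were called, and 311 of all tested genes were called lower and 324 higher, against 357 and 577 with the TMM scaling used throughout.

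Markers of cell types also differed between crypt libraries. The summed level of 12 enterocyte markers (among them Alpi, Fabp1 and Sis) was 7985, 4401, 3035 and 12767 CPM in WT and 12196, 19578, 25458 and 23601 CPM in KO IEC crypts, where the libraries with the lowest mitotic medians, KO replicates 3 and 4, had the highest sums. The 6 leukocyte markers, all detected, summed to between 21.2 and 110.2 CPM in WT and between 50.2 and 360.3 CPM in KO. The 5 stem cell markers (Lgr5, Ascl2, Olfm4, Smoc2, Axin2) summed to between 1493 and 2339 CPM in WT and between 940.2 and 1506 CPM in KO. Paneth cell markers ran from 11016 to 20584 CPM in WT and from 2086 to 19056 CPM in KO. Goblet cell markers ran from 6053 to 8785 and from 8086 to 12638 CPM. Enteroendocrine markers ran from 318.6 to 470.2 and from 287.5 to 383.2 CPM. Tuft cell markers ran from 24.4 to 33.9 and from 25.9 to 141.1 CPM. The part of these cells in the result was not tested.

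The KO IEC organoids carry the same deletion in culture, away from the villus. No member was called in either direction by edgeR, where 0.00717% of all tested genes were called lower and 0% higher. No member reached an unadjusted p under 0.05, as 2.07% of all tested genes did with a lower and 2.6% with a higher level, and DESeq2 called none. The 36 fold changes ran from -0.60 (log2) for Cdk1 to 0.11 for Kif23, with standard errors between 0.34 and 0.63. Only Ube2c, Nusap1 and Racgap1 had both KO libraries below both WT libraries, 3 of 36 against 19.4% of all tested genes. Without KO replicate 1, all 36 were called lower with a median of -1.27, where 9.16% of all tested genes were called lower. Without KO replicate 2, none was called, 5 of 36 lay below WT and the median was 0.12. In these fits the lone KO library is assumed to vary like the others.

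The same library was apart in cell type markers. Enterocyte markers summed to 7151 and 12521 CPM in the WT organoids, to 5485 CPM in KO replicate 1 and to 16292 CPM in KO replicate 2. Stem cell markers summed to 2426 and 3593 CPM in WT, to 1468 CPM in KO replicate 1 and to 335.9 CPM in KO replicate 2. Cul4b was 1.69 and 1.76 CPM in KO replicates 1 and 2, against 83.2 and 73.2 CPM in WT. Any part of the extent of deletion in the split between the KO libraries was not tested. The part of these cells in the result was not tested.

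The KO CAG organoids asked the same of an inducible deletion. In them 16 of the 36 members fell (edgeR adjusted p under 0.05), where 13.4% of all 13598 tested genes were called lower, and none rose, where 18.1% were called higher. The largest falls were those of Nusap1, Cenpa, Cenpf, Mki67, Ndc80, Bub1, Kif11, Aurkb, Racgap1 and Bub1b, and the other calls were Top2a, Anln, Prc1, Ccnb2, Ccna2 and Kif23. In 29 members both KO libraries lay below both WT libraries, where 34.2% of all tested genes did so, and in none were both above, as 35.5% of all tested genes were. An unadjusted p under 0.05 with a lower level was reached by 24 members and 19.3% of all tested genes. Fold changes ran from -0.70 (log2) for Nusap1 to 0.12 for Ect2. Without KO replicate 2, 33 were called lower with a median of -0.58, where 16.8% of all tested genes were called lower. Without KO replicate 1, 15 were called lower and 1 higher, with a median of -0.21, where 13.3% of all tested genes were called lower. In 1 fit of all 16 libraries, which then share 1 estimate of the spread, none was called in KO CAG organoids and 2 were called in crypts, where 1.1% and 3.76% of all tested genes were called lower. Enterocyte markers summed to 6149 and 6545 CPM in WT and to 17170 and 13475 CPM in KO CAG, and the summed Paneth, goblet and enteroendocrine markers were also above both WT libraries in both KO libraries. Epithelial markers summed to 5515 and 5221 CPM in WT and to 7609 and 6887 CPM in KO CAG. Stem cell markers were lower, at 2819 and 3327 CPM in WT and 2314 and 2713 CPM in KO CAG, and tuft cell markers overlapped. The part of these cells in the result was not tested.

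**Figure D3:**
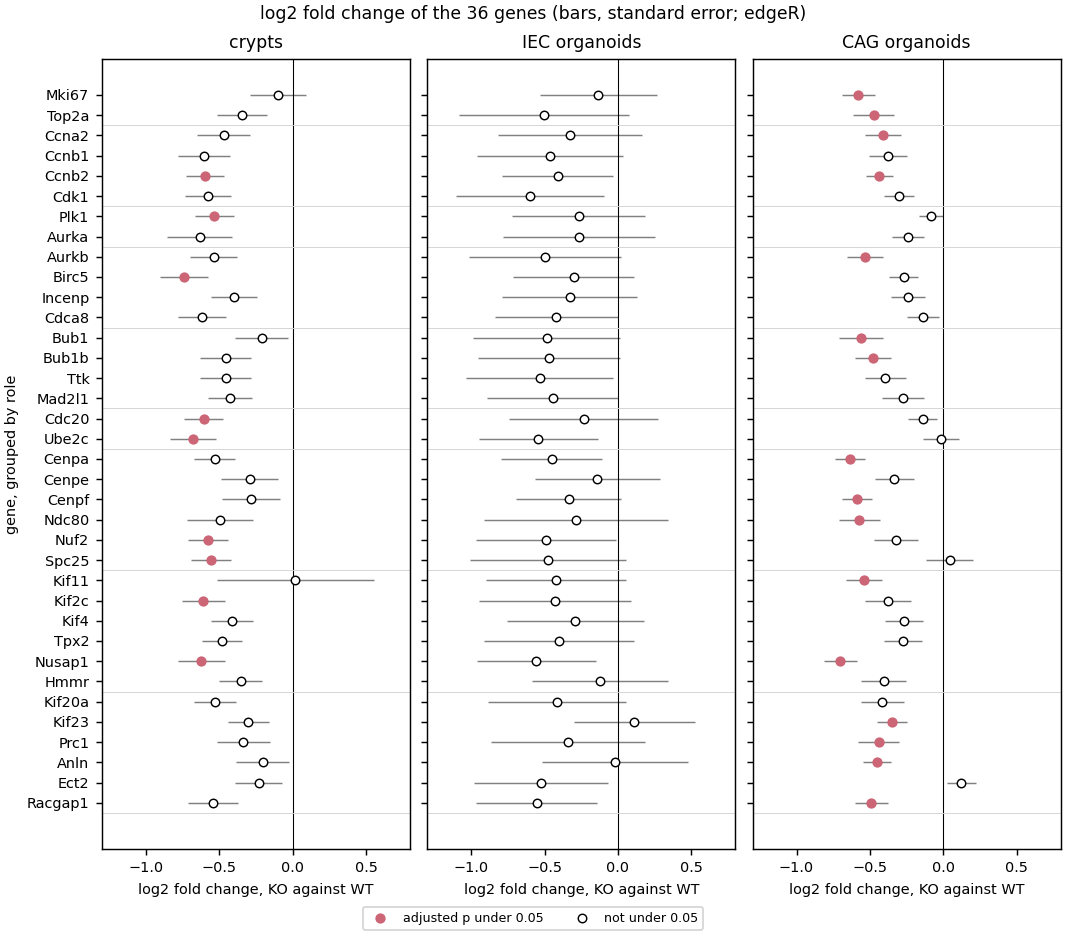
Points give the log2 fold change of each of the 36 genes, KO against WT, in the 3 experiments, with bars of 1 standard error, and filled points mark an edgeR adjusted p under 0.05. Filled points number 9 in crypts, 0 in the KO IEC and 16 in the KO CAG organoids, and the bars are widest in the KO IEC organoids.

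Which members passed the test differed between the crypts and the KO CAG organoids, but no member was shown to respond differently. Ccnb2 and Nusap1 were called in both, which is 22.2% of the crypt calls and 12.5% of the KO CAG calls, and 13 members were called in neither. The difference between the effects in 2 experiments, tested as an interaction in 1 edgeR fit of all 16 libraries over 15585 genes, was called for 0 of 36 members in each of the 3 contrasts, with 0 called by DESeq2. None of the 36 reached an unadjusted p under 0.05 either, as 14.4%, 10.9% and 6.96% of all tested genes did in the contrasts of crypts with KO CAG organoids, KO IEC with KO CAG organoids and crypts with KO IEC organoids. In the same order, 0.372%, 0.385% and 0.00642% of all tested genes were called. The lowest unadjusted p among the members was 0.0940 (edgeR), for Ube2c between crypts and KO CAG organoids, a difference of -0.65 (SE 0.36). This fit shares 1 estimate of the spread, and in it 0 members were called lower in KO CAG organoids and 2 in crypts. It could hardly call a difference between such effects, so the lack of calls does not show that the effects were alike. Without KO IEC organoid replicate 1, 3 members were called between KO IEC and KO CAG organoids, where the number of all genes called was 669, against 60 with all libraries.

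Among cyclins and their kinase, which together start mitosis, all 4 genes had a log2 fold change below 0 in all 3 experiments. In the KO IEC organoids only KO replicate 2 lay below both WT libraries. In KO replicate 1, Ccna2 and Ccnb1 lay above both WT libraries, and Ccnb2 and Cdk1 lay between them. Ccnb2, 1 of the B-type cyclins, stood at 123, 125, 122 and 121 CPM in WT crypts and at 84.9, 86.3, 60.2 and 92.1 CPM in KO IEC crypts. The WT values were nearly the same and every KO value lay well under them, with a log2 fold change of -0.60 (SE 0.13, edgeR adjusted p = 0.0423). In the KO CAG experiment it stood at 95.04 and 88.1 CPM in WT and 64.2 and 70.9 CPM in KO, a log2 fold change of -0.44 (SE 0.09, edgeR adjusted p = 0.00528). In the KO IEC experiment the levels were 89.8 and 75.2 CPM in WT and 83.99 and 39.98 CPM in KO, so that only the second KO library was low. Ccnb1, the cyclin that brings CDK1 to its mitotic targets, stood at 85.7, 109.9, 123 and 95.4 CPM in WT crypts and 86.1, 68.9, 48.7 and 68.2 CPM in KO IEC crypts. The first KO library lay just above the lowest WT value, and the log2 fold change of -0.61 missed the threshold (edgeR adjusted p = 0.0608). The KO CAG organoids had Ccnb1 at -0.37 (edgeR adjusted p = 0.0511) and Cdk1, the kinase itself, at -0.30 (edgeR adjusted p = 0.0504). Both lay just outside the threshold, although both KO libraries were under both WT libraries for each. Cdk1 in crypts stood at 73.8, 99.9, 86.99 and 76.8 CPM in WT and 69.3, 57.9, 42.4 and 56.6 CPM in KO, with no overlap and a log2 fold change of -0.58 (SE 0.16, edgeR adjusted p = 0.0533). Ccna2, the cyclin of S phase and early mitosis, fell in KO CAG organoids, where it stood at 139 and 144 CPM in WT and 89.9 and 122 CPM in KO (log2 fold change -0.41, SE 0.12, edgeR adjusted p = 0.0294). In crypts its value was -0.47 (SE 0.18, edgeR adjusted p = 0.113).

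Ki-67 and topoisomerase II alpha passed the test in KO CAG organoids and not in crypts. Mki67, the marker of cycling cells that coats mitotic chromosomes, stood at 414, 561, 559 and 464 CPM in WT crypts and 625, 499, 374 and 364 CPM in KO IEC crypts. The first KO library was the highest of all 8 and the groups overlapped, with a log2 fold change of -0.10 (SE 0.19, edgeR adjusted p = 0.741) and a 95% confidence interval from -0.53 to 0.33. Mki67 fell in the KO CAG organoids from 503 and 457 CPM to 287 and 354 CPM, a log2 fold change of -0.58 (SE 0.11, edgeR adjusted p = 0.00355). For Mki67 the 2 KO IEC organoid libraries stood at 415 and 185 CPM around WT values of 313 and 345 CPM. Top2a, which untangles sister chromatids, stood at 405, 539, 534 and 444 CPM in WT crypts and 489, 390.4, 290.4 and 343 CPM in KO IEC crypts. KO replicate 1 lay inside the WT range and the others below it, and the log2 fold change was -0.35 (SE 0.17, edgeR adjusted p = 0.200). Top2a fell in the KO CAG organoids, from 459 and 473 CPM to 276 and 393 CPM (log2 fold change -0.47, SE 0.14, edgeR adjusted p = 0.0274). The difference between the crypt and the KO CAG effect was not called for either gene.

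Of the mitotic kinases, Plk1, which acts from centrosome maturation to cytokinesis, fell in the crypts. It stood at 115, 126, 120.2 and 109 CPM in WT and 89.4, 95.4, 62.5 and 77.03 CPM in KO IEC crypts, without overlap, a log2 fold change of -0.53 (SE 0.13, edgeR adjusted p = 0.0486). In the KO CAG experiment it stood at 126 and 132 CPM in WT and 116 and 126 CPM in KO. These groups overlapped, with a log2 fold change of -0.086 (SE 0.08, edgeR adjusted p = 0.459) and a 95% confidence interval from -0.27 to 0.10. Aurka, the kinase of spindle poles, stood at 82.4, 91.7, 85.3 and 62.5 CPM in WT crypts and 72.1, 58.7, 35.1 and 41.3 CPM in KO IEC crypts. KO replicates 3 and 4 lay far below WT and KO replicate 1 inside its range, with a log2 fold change of -0.64 (SE 0.22, edgeR adjusted p = 0.0891). Its value in the KO CAG organoids was -0.24 (SE 0.11, edgeR adjusted p = 0.118).

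The chromosomal passenger complex corrects faulty attachments of chromosomes and joins Aurkb to Incenp, Birc5 and Cdca8. Birc5 (survivin) had the largest crypt effect of the group. It stood at 108, 118, 121 and 100.01 CPM in WT and 80.1, 62.8, 46.98 and 77.3 CPM in KO IEC crypts, with every KO library below every WT library and a log2 fold change of -0.74 (SE 0.16, edgeR adjusted p = 0.0431). With CAG-CreERT2 it stood at 68.1 and 73.5 CPM in WT and 55.3 and 61.6 CPM in KO, again without overlap, but the log2 fold change was -0.27 (SE 0.10, edgeR adjusted p = 0.0560) and missed the threshold. Aurkb, the kinase of the complex, fell in KO CAG organoids, from 66.9 and 68.2 CPM to 39.9 and 52.5 CPM (log2 fold change -0.53, SE 0.12, edgeR adjusted p = 0.00904). In crypts Aurkb was at -0.54 (SE 0.16, edgeR adjusted p = 0.0651), with values of 68.6, 75.4, 72.5 and 54.2 CPM in WT and 59.9, 48.1, 36.9 and 41.4 CPM in KO. The first KO library lay inside the WT range and the others below it. Incenp, the scaffold, was at -0.40 in crypts and -0.24 in KO CAG organoids, and Cdca8 (borealin) at -0.62 and -0.14, none of them called.

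The spindle assembly checkpoint holds anaphase back until all kinetochores are attached. None of its 4 members was called in crypts by edgeR, where 2.66% of all tested genes were called lower. At an unadjusted p under 0.05, 3 were lower there, against 14.6% of all tested genes. Bub1 and Bub1b were called lower in KO CAG organoids, where 13.4% of all tested genes were. Bub1, a checkpoint kinase, stood there at 44.3 and 44.1 CPM in WT and 24.3 and 34.8 CPM in KO, a log2 fold change of -0.56 (SE 0.15, edgeR adjusted p = 0.0186). Bub1b (BubR1), a subunit of the checkpoint inhibitor, fell from 109.7 and 109 CPM to 66.6 and 89.2 CPM (log2 fold change -0.48, SE 0.12, edgeR adjusted p = 0.0136). For both genes the first KO library was the lower. In crypts Bub1b stood at 90.97, 113, 105 and 84.3 CPM in WT and 92.9, 77.95, 54.3 and 60.8 CPM in KO. Its first KO library lay inside the WT range, and the log2 fold change was -0.46 (SE 0.17, edgeR adjusted p = 0.109). Ttk (MPS1), which starts checkpoint signalling, was at -0.46 in crypts and -0.39 in KO CAG organoids, and Mad2l1 (MAD2) at -0.43 and -0.27.

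Cdc20, which activates the anaphase-promoting complex (APC/C), and Ube2c, the E2 enzyme that works with it, both fell in crypts and neither in KO CAG organoids. Cdc20 stood at 146, 156, 154 and 130.5 CPM in WT crypts and 118, 99.3, 78.7 and 89.3 CPM in KO IEC crypts, a log2 fold change of -0.61 (SE 0.13, edgeR adjusted p = 0.0427). Ube2c stood at 164, 190.2, 169 and 147 CPM in WT and 133, 108, 79.4 and 96.97 CPM in KO IEC crypts, a log2 fold change of -0.68 (SE 0.16, edgeR adjusted p = 0.0450). Neither gene's groups overlapped in the crypts. In the KO CAG experiment Ube2c stood at 118 and 118 CPM in WT and 99.7 and 134 CPM in KO. The KO libraries lay on either side of WT, with a log2 fold change of -0.014 and a 95% confidence interval from -0.28 to 0.26. Cdc20 was at -0.14 (SE 0.10, edgeR adjusted p = 0.297) there. Among KO IEC organoids Ube2c had both KO libraries below WT, at 144 and 62.5 CPM against 153 and 148 CPM. Cdc20 overlaps Elovl1 on the other strand, whose highest count was 1915, and whether the counting used strand is not given in the sources used here.

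At the centromere and kinetochore, where microtubules grip chromosomes, different genes of the group passed the test in crypts and in KO CAG organoids. Cenpa, the histone H3 variant that marks centromeres, fell in KO CAG organoids from 112 and 105 CPM to 62.6 and 76.1 CPM (log2 fold change -0.63, SE 0.10, edgeR adjusted p = 0.00132). Cenpf, a large protein of the outer kinetochore, fell there from 101 and 97.7 CPM to 59.6 and 71.9 CPM (log2 fold change -0.59, SE 0.10, edgeR adjusted p = 0.00183). Both KO libraries lay below both WT libraries for each, the first more so. Ndc80, the microtubule-binding subunit of the NDC80 complex, was at 28.8 and 25.5 CPM in WT and 17.2 and 19.1 CPM in KO CAG organoids (log2 fold change -0.57, SE 0.14, edgeR adjusted p = 0.0115). Its partners in the same complex were not called there. Spc25 was at 0.043 and Nuf2 at -0.32 in KO CAG organoids, and both fell in crypts. Nuf2 stood at 38.1, 42.4, 44.3 and 36.5 CPM in WT crypts and 34.1, 24.3, 22.8 and 26.8 CPM in KO IEC crypts (log2 fold change -0.58, SE 0.14, edgeR adjusted p = 0.0460). Spc25 stood at 32.3, 36.3, 39.98 and 36.3 CPM in WT and 28.01, 25.6, 18.7 and 26.4 CPM in KO (log2 fold change -0.55, SE 0.14, edgeR adjusted p = 0.0475). Neither overlapped between the crypt groups. Ndc80 in crypts was at -0.49 (SE 0.23, edgeR adjusted p = 0.165), with overlapping groups. Cenpe, a kinetochore motor that carries chromosomes to the spindle middle, was at -0.29 (SE 0.19, edgeR adjusted p = 0.317) in crypts and -0.34 (SE 0.13, edgeR adjusted p = 0.0796) in KO CAG organoids.

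Among spindle proteins Nusap1, which bundles spindle microtubules, had every KO library below every WT library in all 3 experiments. Taken singly, 8.79% of all tested genes did so in crypts, 19.4% in KO IEC and 34.2% in KO CAG organoids. It stood at 81.7, 105, 93.6 and 77.8 CPM in WT and 69.7, 61.2, 41.8 and 59.6 CPM in KO IEC crypts (log2 fold change -0.62, SE 0.16, edgeR adjusted p = 0.0499). In the KO CAG experiment it stood at 84.8 and 76.6 CPM in WT and 44.3 and 54.2 CPM in KO, the largest fall of the 36 there (log2 fold change -0.70, SE 0.11, edgeR adjusted p = 0.00121). In the KO IEC experiment it stood at 75.03 and 71.9 CPM in WT and 69.7 and 30.2 CPM in KO, where the first KO library lay only just below WT. Nusap1 overlaps Oip5 on the other strand, whose highest count in any library was 247. Kif2c (MCAK), a motor that shortens microtubules, stood at 43.2, 46.6, 47.3 and 37.8 CPM in WT crypts and 36.3, 29.2, 23.2 and 26.01 CPM in KO IEC crypts, without overlap (log2 fold change -0.61, SE 0.14, edgeR adjusted p = 0.0460). Tpx2, an activator of Aurora A, was at -0.48 in crypts and -0.28 in KO CAG organoids, Kif4, a chromosome-bound kinesin, at -0.42 and -0.27, and Hmmr, a spindle-pole protein, at -0.36 and -0.41. None of these was called.

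Kif11 (Eg5), the motor that pushes spindle poles apart, stood apart from the other members in the crypts. It stood at 8.69, 8.11, 14.3 and 16.2 CPM in WT crypts and 6.03, 27.8, 9.54 and 4.23 CPM in KO IEC crypts. KO replicate 2 was the highest and KO replicate 4 the lowest of all 8, and the log2 fold change was 0.018 (SE 0.53, edgeR adjusted p = 0.984) with a 95% confidence interval from -1.18 to 1.22. The sign turned to -0.85 without KO replicate 2, and was also below 0 without WT replicate 1 (-0.10) or WT replicate 2 (-0.13). Kif11 fell in the KO CAG organoids, from 142 and 146 CPM to 83.3 and 114 CPM (log2 fold change -0.54, SE 0.12, edgeR adjusted p = 0.00876). In the KO IEC experiment it stood at 158 and 154 CPM in WT and 171 and 62.1 CPM in KO. Its level was also low in the crypts themselves. On log2(CPM + 1), the WT crypt level was 3.50 units below the lower of the 2 WT organoid levels (log2 difference -3.50), whereas the other 35 members lay between -0.42 and 0.65. The tables were normalized separately and crypts and organoids were prepared apart, so this difference is a description. Only 27 of 12478 genes, Kif11 included, were as low by this measure (0.216%).

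In cytokinesis, central spindle genes bring the cleavage machinery to the cell middle. None of the 6 members was called in crypts by edgeR, where 2.66% of all tested genes were called lower. At an unadjusted p under 0.05, 2 were lower there, against 14.6% of all tested genes. In KO CAG organoids 4 were called lower, where 13.4% of all tested genes were. Racgap1, which with Kif23 forms centralspindlin, fell in KO CAG organoids from 119 and 126 CPM to 75.8 and 97.7 CPM (log2 fold change -0.49, SE 0.11, edgeR adjusted p = 0.00886). Anln (anillin), a scaffold of the contractile ring, fell from 57.8 and 57.7 CPM to 42.3 and 42.3 CPM (log2 fold change -0.45, SE 0.09, edgeR adjusted p = 0.00545). Prc1, which crosslinks microtubules of the midzone, fell from 67.8 and 74.1 CPM to 43.1 and 60.5 CPM (log2 fold change -0.44, SE 0.14, edgeR adjusted p = 0.0372). For these 3 both KO libraries lay below both WT libraries, as they did for 34.2% of all tested genes. For Anln the KO libraries were nearly equal. Kif23, the motor of centralspindlin, fell from 110.5 and 110.3 CPM to 77.7 and 94.7 CPM in KO CAG organoids (log2 fold change -0.35, SE 0.10, edgeR adjusted p = 0.0238). Kif23 in the KO IEC organoids stood at 114 and 48.7 CPM against 80.4 and 69.7 CPM in WT, the first far above and the second below. Ect2, the exchange factor that switches on RhoA at the cleavage site, stood at 101 and 105 CPM in WT and 102 and 122 CPM in KO CAG organoids. It was the only gene of the 6 above WT there, with a log2 fold change of 0.12 (SE 0.10, edgeR adjusted p = 0.354). In crypts Anln was at -0.21 (SE 0.18, edgeR adjusted p = 0.457), and Kif20a (MKLP2), which carries the passenger complex to the midzone, was at -0.53 (SE 0.14, edgeR adjusted p = 0.0552).

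Per kilobase of gene length, the most abundant members in WT were much the same in each experiment. In WT crypts Ccnb2 (80.0 CPM per kb), Cdc20 (78.6), Ube2c (64.4), Plk1 (53.4), Top2a (53.3) and Mki67 (49.7) led by mean CPM per kb. Among WT organoids of the KO CAG experiment the first 6 were the same genes in another order, with Ccnb2 (59.8), Plk1 (58.7) and Cdc20 (57.4) at the top. Kif11 was last of the 36 in crypts (2.46 CPM per kb) and ninth of 36 there (29.9 CPM per kb). Lengths are those given in the tables, and for Ndc80 these differed, with 2201 bases in crypts and KO CAG organoids and 6493 in KO IEC organoids.

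The size of the crypt effect went with gene length within the group. Across the 36 members, Spearman's rho between the log2 fold change and log2 length was 0.61 in crypts, 0.14 in the KO IEC and -0.29 in the KO CAG organoids, where it was 0.227, 0.183 and -0.0065 across all tested genes. In the crypts the 18 shorter members had a median log2 fold change of -0.55 and the 18 longer ones of -0.35. Genes of 1 library share its RNA quality and composition and are not independent, so these values describe the 3 data sets, and their cause was not tested. The order of the members differed between experiments, with a Spearman's rho of their fold changes of -0.34 between crypts and KO CAG organoids, 0.28 between crypts and KO IEC organoids and 0.080 between the 2 organoid experiments (36 genes each).

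**Figure D4:**
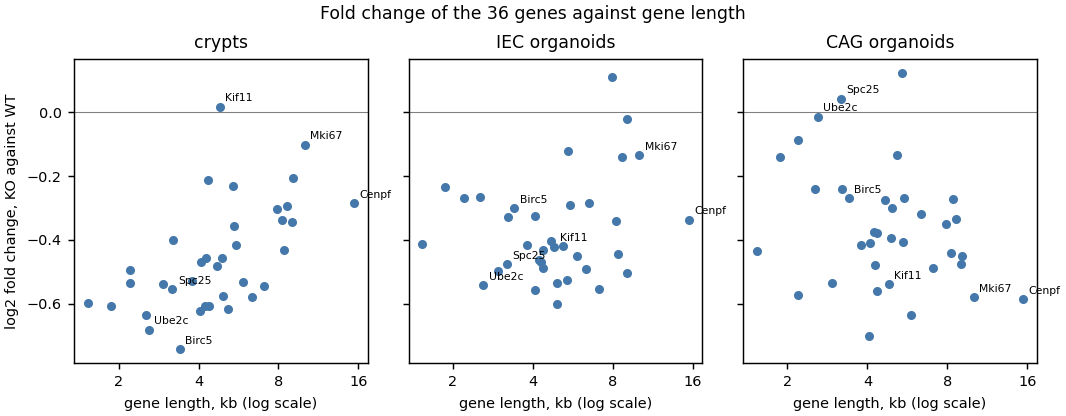
Each point is 1 of the 36 genes, with gene length in kilobases on a log axis (x) and the log2 fold change of KO against WT (y) in each experiment. Spearman's rho is 0.61 in crypts, 0.14 in the KO IEC and -0.29 in the KO CAG organoids, with Mki67 at -0.10 in crypts and -0.58 in KO CAG organoids and Ube2c at -0.68 and -0.014.

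Other genes around the same machinery were read from lists that do not hold the 36. Their counts stand beside 2.66% of all tested genes called lower in crypts, and 13.4% called lower and 18.1% higher in KO CAG organoids. Of 14 genes of CDK1 control and the G2 checkpoint, 2 fell in crypts and 4 fell and 1 rose in KO CAG organoids, with medians of -0.47 and -0.23. Cdc25b, the phosphatase that frees CDK1, fell in both (log2 fold change -0.66 and -0.37, edgeR adjusted p = 0.0449 and 0.0233). In KO CAG organoids the kinases Wee1 and Chek1, which hold CDK1 back, also fell (log2 fold change -0.48 and -0.59). Gtse1, a microtubule-binding protein of G2 and S phase, was the gene of this list that rose there. It stood at 30.2 and 33.3 CPM in WT and 75.1 and 78.8 CPM in KO CAG organoids, a log2 fold change of 1.28 (SE 0.10, edgeR adjusted p = 2.19e-05). In crypts Gtse1 stood at 31.5, 32.99, 28.5 and 25.1 CPM in WT and 28.9, 23.7, 17.6 and 17.6 CPM in KO, with overlapping groups and a log2 fold change of -0.43 (SE 0.18, edgeR adjusted p = 0.131). The difference between these effects was -1.69 on the log2 scale, crypts minus KO CAG organoids (edgeR adjusted p = 0.0689).

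Of 18 genes of the MuvB, B-MYB, FOXM1 and E2F machinery, none was called in crypts by edgeR. At an unadjusted p under 0.05, 0 were lower and 1 higher there, where 14.6% and 17.4% of all tested genes were. In KO CAG organoids 4 fell, namely Tfdp2, E2f8, E2f2 and Rbl1, where 13.4% of all tested genes were called lower. Of 22 condensin and cohesin genes, which compact and hold chromatids, 1 fell in crypts (Ncapd2, -0.59) and 11 in KO CAG organoids, led by Pds5b (-0.56). Of 32 further kinetochore and centromere genes, 3 fell in crypts (Pmf1, Spc24 and Zwint) and 8 in KO CAG organoids, among them Hjurp, the chaperone that loads Cenpa (-0.60, edgeR adjusted p = 0.000688). Of 16 genes of the APC/C and enzymes that work with it, such as the E2 enzyme Ube2s, 0 were called in crypts by edgeR. At an unadjusted p under 0.05, 7 were lower there, against 14.6% of all tested genes. In KO CAG organoids 2 fell (Anapc15 and Anapc5), a share close to the 13.4% of all tested genes. No list had a call by edgeR in KO IEC organoids. At an unadjusted p under 0.05, 1 kinetochore gene was higher there and 1 gene of the APC/C list lower. Of all tested genes, 2.6% were higher and 2.07% lower at that threshold.

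Of 27 further spindle, motor and cytokinesis genes, 4 fell in crypts and 7 in KO CAG organoids, where 2.66% and 13.4% of all tested genes were called lower. The crypt calls were Nek2, Kif22, Kifc1 and Ckap2. Nek2, a centrosome kinase, was the only gene of these lists to fall by 2-fold or more in crypts. It stood at 8.69, 8.58, 6.08 and 17.2 CPM in WT and 4.33, 1.91, 1.27 and 2.30 CPM in KO IEC crypts, without overlap, a log2 fold change of -2.05 (SE 0.42, edgeR adjusted p = 0.0413). It fell in KO CAG organoids too (log2 fold change -0.48, edgeR adjusted p = 0.0204). Like Kif11 it was low in crypts, where its counts ran from 12 to 214, and its WT organoid levels were 80.7 and 65.04 CPM in 1 experiment and 72.4 and 71.8 CPM in the other.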

How the data were processed

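RNA-seq libraries of 8 crypt and 8 organoid samples were used. The authors deposited unnormalized read counts of every gene, in 1 table per experiment, and per the submitters' processing notes reads were handled with HISAT2 2.0.5 and featureCounts 1.5.0-p3. Genome build, annotation and strand use of the counting are not given in the sources used here. The positions of 34 of the 36 genes in the tables equal those of GENCODE M21 on GRCm38 (not Incenp and Kif20a), and 18 of the 36 overlap another gene, 14 of them on the other strand.

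KO was compared with WT within each experiment, with no block, in R 4.3.3. After filterByExpr had dropped weakly counted genes and TMM had scaled the libraries, genes were tested with edgeR 4.0.16 (quasi-likelihood F test), and p-values were adjusted by the Benjamini-Hochberg method over every tested gene, with a threshold of 0.05. The standard error of a log2 fold change is its size over the root of F. CPM is TMM-scaled, and its log2 carries a prior count of 2. Effects were compared between experiments as interactions in 1 fit of all 16 libraries. The code was tested on simulated data. Confidence intervals of fold changes use the same errors and the degrees of freedom of the test. The floor of 3 counts covers counting error only.

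Alternatives were a replicate block, DESeq2's size factors, scaling by library size, no low-count filter, DESeq2 1.42.0, a 2-fold threshold, 1 fit of all libraries, leaving out each library, and a covariate for mitochondrial ribosomal RNA class in crypts. The members, the lists and the roles were chosen with earlier results of these data known. Named were 14 members that stand for the roles, members called in an experiment (the 10 largest in each direction), at most 5 called genes of each other list, and the 5 genes most like the members. Other members were named after their values were seen. Nothing was left out of the 16 libraries.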

Additional observations from a re-analysis of the deposited data

How the results depend on the processing

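In crypts the count of 9 members called lower became 0 with a replicate block, 0 with mitochondrial ribosomal RNA class in the model, 0 with a 2-fold threshold, 2 in 1 fit of all 16 libraries, 5 with scaling by library size, 18 without the low-count filter and 18 by DESeq2's Wald test, and ran from 0 to 24 when 1 library was left out. In the same order 0.00745%, 0.00745%, 0.343%, 3.76%, 2.32%, 1.76% and 7.05% of all tested genes were called lower, and 0.00727% to 7.87% with 1 library left out, against 2.66%. In KO CAG organoids the count of 16 became 27 with a replicate block, 0 in 1 fit of all 16 libraries and 0 with a 2-fold threshold, and ran from 13 to 33 when 1 library was left out, and the count called higher ran from 0 to 1. The shares of all tested genes called lower were 16%, 1.1% and 2.24%, and 7.98% to 16.8% with 1 library left out, against 13.4%. In KO IEC organoids the count called lower was 0 to 36 when 1 library was left out, where 0% to 9.16% of all tested genes were called lower, and 0 under the other alternatives. Members called for a difference between KO IEC and KO CAG organoids ran from 0 to 3 when 1 library was left out, and those of all genes from 1 to 669. The cause of these shifts was not tested.

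Kif11 in crypts turned below 0 with a replicate block (-0.31), with scaling by library size (-0.069) and with the class covariate (-0.36), and ran from -0.85 to 0.31 when 1 library was left out. Mki67 in crypts turned to 0.017 with the class covariate and ran from -0.28 to 0.0082 when 1 library was left out. In KO IEC organoids leaving out 1 library turned the sign of 13 named members, always without KO replicate 2 and for Anln also without WT replicate 1. Their log2 fold changes ran from -0.84 to 0.34 (Mki67), -1.68 to 0.13 (Top2a), -1.25 to 0.24 (Ccna2), -1.42 to 0.11 (Ccnb1), -1.12 to 0.26 (Plk1), -1.28 to 0.32 (Aurka), -1.52 to 0.095 (Aurkb), -1.40 to 0.092 (Bub1b), -1.20 to 0.34 (Cdc20), -0.91 to 0.36 (Cenpe), -1.54 to 0.37 (Ndc80), -1.33 to 0.13 (Kif11) and -0.96 to 0.54 (Anln). No named member changed sign in KO CAG organoids under the alternatives run. Otherwise named members kept direction and side of the threshold in 207 cases in crypts, 112 in KO IEC and 160 in KO CAG organoids, lost a call in 83, 0 and 15, and gained one in 16, 14 and 15.

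Same-numbered WT and KO libraries were not shown to pair. Deviations of such libraries from their group's mean correlated at -0.044, 0.19, -0.40 and 0.43 in crypts, 0.342 among KO IEC and 0.067 among KO CAG organoids, so the fits with a replicate block rest on shared numbers alone. All members lay above the floor of 3 counts in all libraries, and no fit at matched depth was made. With 2 libraries a group, 1 library decides much of the spread.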

Other observations

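DNA replication genes, which act in S phase before the genes above, also lay below WT. Of 39, 5 fell in crypts by edgeR (Gins1, Gins2, Gins4, Rfc2 and Tk1), 0 were called in KO IEC organoids and 9 fell in KO CAG organoids, where Ccne1, the cyclin of S phase entry, rose (log2 fold change 0.64, SE 0.19, edgeR adjusted p = 0.0295). Of all tested genes, 2.66%, 0.00717% and 13.4% were called lower in these experiments. At an unadjusted p under 0.05 the list had 0 in either direction in KO IEC organoids, where 2.07% of all tested genes were lower and 2.6% higher. The medians were -0.40, -0.59 and -0.21. In KO IEC organoid replicate 2 the median over the list, as log2 CPM minus the WT mean, was -1.72, and in replicate 1 it was -0.019. GINS proteins are part of the replicative helicase, Rfc2 belongs to the clamp loader, and Tk1 makes thymidine monophosphate.

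The genes outside the 36 whose levels most followed the median of the 36 over the 16 libraries, each centred on the WT mean of its experiment, were Hmgb2 (Pearson's r = 0.993), Cep55 (0.988), Anp32e (0.986), Cdca2 (0.981) and Kif15 (0.981), out of 12478 genes. Among the 36, Tpx2 followed it most closely (0.992) and Kif11 least (0.470). The points share the 3 experiments, and KO IEC organoid replicate 2 lies far from the rest, so these values are a description. Hmgb2, a chromatin protein abundant in dividing cells, stood at 266 and 229 CPM in the WT and 248 and 90.7 CPM in the KO IEC organoids.

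Kif11 shared its low crypt level with genes of other kinds, named here after their values were seen. On log2(CPM + 1), the WT crypt level minus the lower WT organoid level was -4.33 for Hnrnpu and -3.70 for Srsf1, which bind RNA, -3.71 for Mat2a, which makes S-adenosylmethionine, and -3.83 for Ppp1ca, a phosphatase subunit, beside -3.50 for Kif11. Scd1, a fatty acid desaturase, was the lowest of 12478 genes at -6.73.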
